A study of Mus musculus with 55 samples.

Results

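The genes of the cytosolic ribosomal proteins were followed through 6 sorted populations of mouse bone marrow stem and progenitor cells, in WT mice and in mice whose libraries are labelled Tet2 knockout. Members were the rows of the count table whose symbol is Rps or Rpl followed by a number and an optional suffix, or Rplp and a number, without Rps3a2, Rps3a3 and the symbols that end in -ps. They came to 86 of 55421 genes, 33 of the small subunit (Rps) and 53 of the large subunit (Rpl and Rplp). Of these, 82 are annotated as protein coding and 4 (Rpl32l, Rpl6l, Rps12l1 and Rps4l) as pseudogenes. The data are bulk RNA-seq counts of 46 libraries made by a modified SMART-Seq2 protocol from small numbers of sorted cells. Stem cells were sorted as long-term (LT-HSC) and short-term (ST-HSC) haematopoietic stem cells. The progenitors were the CMP (common myeloid), the GMP of granulocytes and macrophages, the MEP of megakaryocytes and red cells, and the CLP (common lymphoid). There were 3 WT libraries each of LT-HSC and ST-HSC (numbers 2, 3 and 5 in their titles) and 4 libraries in each of the other 10 groups (numbers 2 to 5). In the study's methods, the knockout is conditional: mice carrying Tet2 f/f and the Mx1-Cre transgene were injected with poly(I:C) at weaning age, bred on C57BL/6 and kept for months afterwards. Mx1-Cre answers to interferon and is active in tissues beyond the blood. The labels of these libraries give the controls only as WT. The study calls controls of its later experiments Tet2 wt/wt, and whether the WT mice used here were injected too is not given in the sources used here.

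A ribosome is built from its ribosomal RNAs and about equal numbers of each of its proteins, which are imported into the nucleolus, assembled on the pre-ribosomal RNA and exported as a small and a large subunit. The messenger RNAs of these proteins are short and abundant, begin with a run of pyrimidines that ties their translation to mTOR signalling, and have left many processed pseudogenes in mammalian genomes. In blood formation they are known from Diamond-Blackfan anaemia and the 5q- syndrome, in which loss of 1 copy of such a gene affects red cell production in particular.

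Libraries held 50458473 to 102148079 counts (median 70118186.5), and 13754 to 20964 genes were detected in each. No library repeated another, the highest correlation of log values between any pair being 0.979. Mitochondrially encoded genes made up between 2.41% and 14.5% of a library. Tet2 itself did not check the genotype labels: in CPM (a gene's count relative to the library's TMM-scaled total) its lowest, median and highest levels were 11.3, 14.0 and 14.3 in WT LT-HSC against 12.1, 21.6 and 40.4 in the LT-HSC libraries labelled Tet2 knockout, and the ranges overlapped in all 6 populations. Exons were not analysed here, and the directions below are those of the labels. Of the marker sums, GMP markers were at a median of 36100 CPM in WT GMP and MEP markers at 18674 CPM in WT MEP. Sums that would check the other labels are not given here. In CLP the B cell genes Cd79a, Cd79b, Ms4a1 and Ighm summed to between 146129 and 268915 CPM in WT libraries. In knockout CLP libraries they summed to between 674 and 131950.1 CPM.

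The members took between 2.64% and 15.8% of all counts in a library. In WT the share was 12.6% ± 0.56 (SD, n = 3) in LT-HSC and 11.8% ± 1.004 (SD, n = 3) in ST-HSC. Among the WT myeloid progenitors it was 9.86% ± 0.19 in CMP, 6.79% ± 0.867 in GMP and 12.1% ± 0.621 in MEP (SD, n = 4 each), so that GMP stood below the other myeloid progenitors by several SDs and MEP close to the stem cells. WT CLP had the lowest share, 3.16% ± 0.545 (SD, n = 4). In knockout libraries the order was similar, with 12.95% ± 1.87 in LT-HSC, 13.04% ± 1.83 in ST-HSC, 10.997% ± 0.973 in CMP, 6.85% ± 0.448 in GMP, 12.5% ± 0.523 in MEP and 5.28% ± 1.44 in CLP (SD, n = 4 each). In bulk samples, fewer cells of a type and less RNA per cell cannot be told apart, and a share falls when other genes take more of the counts.

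**Figure D1:**
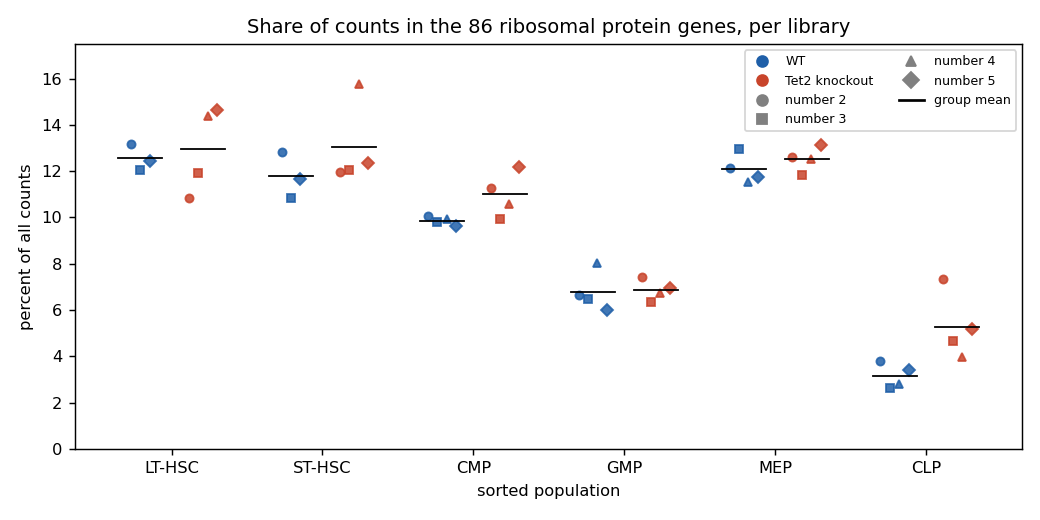
Percent of each library's counts in the 86 ribosomal protein genes, by population, with WT and Tet2 knockout libraries as separate points and group means as lines. GMP and CLP libraries of both genotypes lie below the others, and the 4 knockout CLP libraries lie above the 4 WT CLP libraries.

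Between genotypes the share differed visibly in CLP. The 4 WT CLP libraries were at 3.82%, 2.64%, 2.79% and 3.39% and the 4 knockout CLP libraries at 7.32%, 4.66%, 3.99% and 5.17%, without overlap. The knockout library at 7.32% (number 2) also had 12.5% mitochondrial counts and the fewest genes detected, 13754. TMM factors, which raise a library's CPM where a few genes take much of its counts, were 0.546 to 0.709 in WT CLP and 0.736 to 1.08 in knockout CLP, and the B cell genes given above were lower in knockout CLP; their part in the difference was not tested. For the balance of the subunits, small-subunit counts per large-subunit count ran from 0.722 to 0.939 over all libraries. Their means were 0.876 in WT LT-HSC and 0.888 in WT ST-HSC, above those of the WT progenitors, which lay between 0.769 and 0.813.

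Differences between populations were measured within each genotype, first in WT. Between ST-HSC and LT-HSC no member of 84 tested was called by edgeR's quasi-likelihood test at an adjusted p of 0.05, 4 had an unadjusted p under 0.05 and DESeq2 called 0. Of all genes, edgeR called 0.175% and DESeq2 4.13%. The share of all genes with an unadjusted p under 0.05 is not given, here or below. The median log2 fold change of the members was -0.10. From ST-HSC to CMP, 15 members fell and 2 rose, against 2.05% and 4.25% of all genes, with a median of -0.34. The 2 that rose were Rps2 (3.20 ± 0.28, SE) and Rpl13 (1.54 ± 0.39), while Rpl22l1 (-0.94), Rps7 (-0.79) and Rps27 (-0.78) were the lowest of those called. This count was 2 without the number 2 libraries, 4 without number 3 and 1 without number 5, and DESeq2 called 39 members and 15.6% of all genes.

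The myeloid branches went opposite ways from CMP in WT. In GMP 36 of 84 members fell and 0 rose, where 2.71% of all genes fell and 2.1% rose, with a median of -0.45. Rps4x (-0.76 ± 0.09) and Rps14 (-0.76 ± 0.11), the gene of the 5q- syndrome, were among the called members that fell the most. In MEP 40 of 84 members rose and 0 fell, where 2.75% of all genes rose and 6.14% fell, with a median of 0.43. Rps27l, a paralogue of Rps27 that p53 activates, rose by 0.92, Rps21 by 0.84 and Rps12 by 0.78. The GMP and MEP comparisons share the CMP libraries. Leaving out 1 number lowered the GMP count to 17 (number 2), 22 (number 3) or 14 (number 5), and the MEP count to 20, 13 and 18 for the same numbers.

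Of these contrasts, CLP against ST-HSC had the most calls. In WT 72 of 84 members fell, 52 of them at least 2-fold, where 16.9% of all genes fell and 14.3% did so at least 2-fold, and the members' median was -1.14. Rpl22l1 (-1.89 ± 0.24), Rpl36a (-1.70 ± 0.18) and Rpl15 (-1.69 ± 0.13) had the lowest values of the members called. The 2 members that rose, beside 11.2% of all genes, were again Rps2 (2.10 ± 0.27) and Rpl13 (1.13 ± 0.38). Rplp1 and Rplp2, which form the acidic stalk of the large subunit, were among the members without a call, at -0.33 and -0.54. This median was -0.99 under DESeq2's size factors (RLE), and B cell genes were high in the CLP libraries, as given above.

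Knockout libraries gave the same contrasts with other counts. ST-HSC and LT-HSC again differed in 0 of 85 members by edgeR (1 with an unadjusted p under 0.05, 0 by DESeq2), where edgeR called 0.118% and DESeq2 3.74% of all genes. From ST-HSC to CMP edgeR called 1 member, Rps9 (-0.70 ± 0.16), and 3.96% of all genes. It called 6 members with RLE scaling and 6 in the fit of all 46 libraries, and DESeq2 called 21 and 11.7% of all genes. The median was -0.32, close to that in WT. In GMP 32 members fell relative to CMP and 1, Rps2, rose (1.76 ± 0.32), where 1.93% of all genes fell and 1.98% rose, with a median of -0.64. Of the members called, Rps14 (-0.86), Rpl32 (-0.85) and Rpl17 (-0.84) fell the most. In MEP 9 members rose relative to CMP, where 0.603% of all genes rose, with a median of 0.35 and with Rps12 (0.65) and the stalk gene Rplp0 (0.60) among the highest. The knockout CMP libraries, the baseline of both contrasts, held more of the MEP markers than the WT ones (median sums of 5467 and 1788 CPM), and the part of this in the GMP and MEP values was not tested. In CLP 72 of 85 members fell relative to ST-HSC, 50 of them at least 2-fold, where 12.8% of all genes fell and 10.8% did so at least 2-fold, with a median of -1.14.

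The 3 that rose in knockout CLP, beside 10.2% of all genes, were Rps2 (2.47 ± 0.33), Rpl13 (1.51 ± 0.52) and Rpl3l. The last, a paralogue of Rpl3 known from muscle, was at 0, 0.653, 8.07 and 17.9 CPM in the knockout CLP libraries and at 0 counts in all 4 knockout ST-HSC libraries, so no fold is given. Knockout counts in the myeloid contrasts depended on single numbers. The CMP count was 2 without number 2 and 0 without number 3, 4 or 5. For GMP it was 15 without number 2, 1 without number 3, 3 without number 4 and 1 without number 5, and for MEP it was 2, 0, 1 and 2. DESeq2 called 63 members in the GMP contrast and 20 in the MEP contrast, and 11.4% and 12% of all genes. Across all 6 populations, edgeR's F test called 79 of 84 members in WT and 77 of 85 in knockout libraries, where 44.6% and 40.2% of all genes were called.

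**Figure D2:**
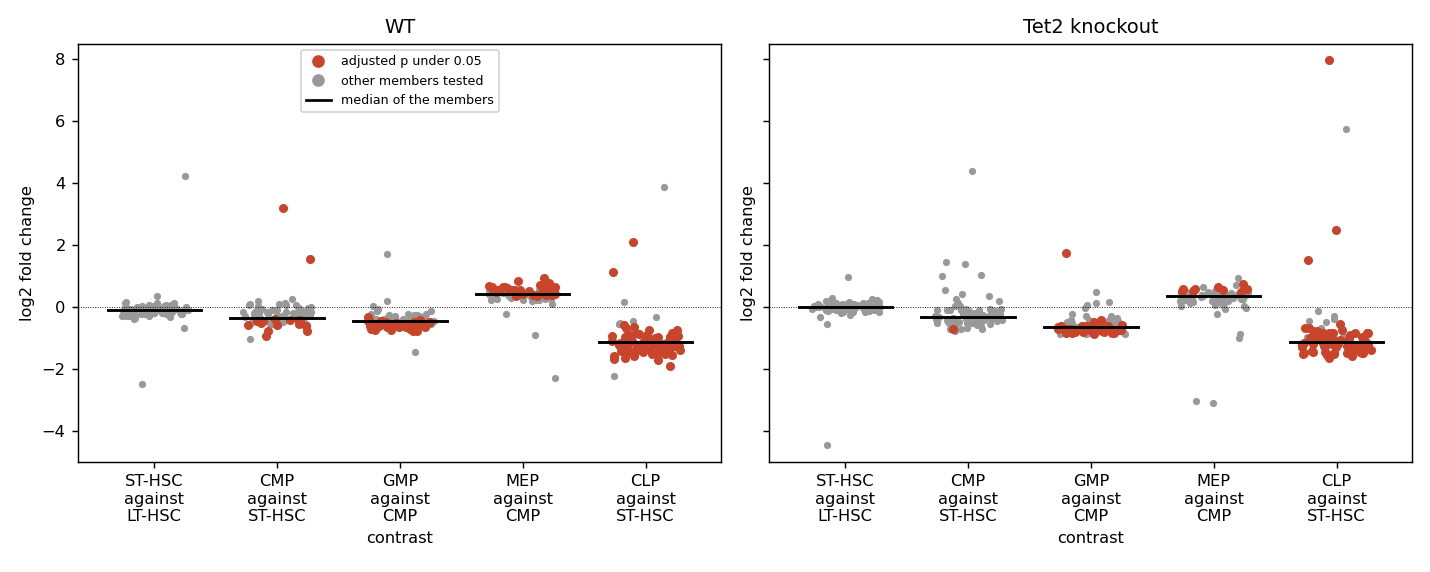
Log2 fold changes of the ribosomal protein genes in 5 contrasts between populations, WT and knockout side by side, 1 point per member tested and a line at the median. Members lie mostly below 0 in CMP against ST-HSC, GMP against CMP and CLP against ST-HSC, and above 0 in MEP against CMP.

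The population with a member's highest mean depended on the scaling. Of 81 members that reached a mean of 10 CPM in a WT population, 53 were highest in MEP, 22 in LT-HSC and 6 in ST-HSC, and 70 were lowest in CLP. On CPM without TMM factors, which were 0.977 to 0.999 in WT MEP and 1.07 to 1.15 in WT LT-HSC, 44 were highest in LT-HSC and 28 in MEP, and 79 were lowest in CLP. In the knockout libraries 40 of 81 were highest in MEP, 21 in LT-HSC and 18 in ST-HSC, and 54 were lowest in CLP and 23 in GMP, and without the factors 30 were highest in MEP, 19 in LT-HSC and 30 in ST-HSC, and 69 were lowest in CLP and 9 in GMP. Levels between genes were compared per kb of exon, on CPM without the TMM factors. Rplp1 (3495 CPM per kb), Rpl36 (2790) and Rpl32 (2589) had the highest means over all libraries. The lowest were Rpl10l, a testis paralogue of Rpl10, at 0.0006, Rps12l1 at 0.16 and Rpl3l at 0.647 CPM per kb. Rpl10l and Rps12l1 stayed under the low-count filter in every genotype comparison, Rpl3l in LT-HSC, ST-HSC and MEP, and Rpl39l in ST-HSC, CMP, MEP and CLP.

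Knockout libraries were next compared with WT libraries of the same population, with calls among the members set beside the share of all genes called. In LT-HSC 0 of 83 members passed edgeR's test at an adjusted p of 0.05, where 0.0245% of all genes did, 5 had an unadjusted p under 0.05, and DESeq2 called 0 (1.7% of all genes). ST-HSC had 0 of 82 by edgeR, where 0.0185% of all genes passed, with 10 at an unadjusted p under 0.05 and 1, Rpl38, by DESeq2 (2.5% of all genes). In CLP the count was 0 of 83, where 0.00766% of all genes passed, with 5 at an unadjusted p under 0.05. DESeq2, with its own filter, called 4 members (Rpl38, Rpl39l, Rps12 and Rps27a) and 2.96% of all genes. Of these Rpl39l was not among the 83: it was at 0 CPM in the 4 WT CLP libraries and at 3.95, 13.6, 0 and 0 CPM in the knockout ones. The members' median log2 fold change was 0.16 in LT-HSC, 0.28 in ST-HSC and 0.24 in CLP, beside 0.06, 0.04 and 0.07 over all genes tested.

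In CMP, 7 of 83 members were called, 5 higher and 2 lower in knockout libraries, where 6.89% of all genes were called (1.71% higher, 5.18% lower). The members' median was 0.26 against 0.03 over all genes tested. An unadjusted p under 0.05 was found for 53 members, but without the share of all genes at that cut this cannot be read as particular to them. Those that rose were Rpl38 (1.39 ± 0.19, SE), Rps27l (0.62 ± 0.11), Rplp1 (0.46 ± 0.11), Rpl23a (0.37 ± 0.09) and Rpl17 (0.37 ± 0.09), and those that fell were Rps2 (-1.97 ± 0.17) and Rpl13 (-0.75 ± 0.18). Rpl13 lost its call without WT number 3 (-0.82, edgeR adjusted p = 0.0547) and with the replicate block (-0.76, edgeR adjusted p = 0.0689). The Rps27l levels were 345, 280, 296 and 317 CPM in WT and 459, 454, 442 and 554 CPM in knockout CMP, without overlap. Rplp1 was at 1310, 995, 1353 and 1352 CPM against 1640, 1584, 1822 and 1880.2 CPM. DESeq2 called 30 members here and 13.3% of all genes. The count was 3 without WT number 4, WT number 5 or knockout number 2, and 4 without knockout number 4 or 5. The knockout CMP libraries also held more of the MEP markers, all 6 of which were above 1 CPM in both groups: their sum was 3866 to 7491 CPM (median 5467) against 992 to 2437 CPM (median 1788) in WT, without overlap, and its part in these differences was not tested.

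GMP had 1 call of 84 members, Rpl34 lower (-1.92 ± 0.42, edgeR adjusted p = 0.0184), where 5.49% of all genes were lower, and the members' median was 0.03. This call was lost without WT number 2 or knockout number 3, 4 or 5, and without WT number 5 there were 2. DESeq2 called 2 members and 10.2% of all genes. In MEP, 6 of 82 members were called, where 5.66% of all genes were (0.656% higher, 5.01% lower), and the median was 0.11. Rps2 (-2.85 ± 0.24), Rpl34 (-1.84 ± 0.40) and Rps3a1 (-0.53 ± 0.07) fell, and Rpl38 (0.94 ± 0.21), Rpl11 (0.43 ± 0.10) and Rps4x (0.26 ± 0.06) rose. Rpl11, whose product binds Mdm2 when ribosome assembly is disturbed, was at 1213, 1263, 1113 and 1111 CPM in WT and 1734, 1642, 1737 and 1280.1 CPM in knockout MEP, all 4 above the WT libraries. Its edgeR adjusted p was 0.043, and its call was lost with the replicate block, which kept only Rps2 and Rps3a1 of the 6. The MEP count was 2 without WT number 4, WT number 5 or knockout number 4, and 3 without knockout number 2, 3 or 5. DESeq2 called 10 members and 9.84% of all genes.

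**Figure D3:**
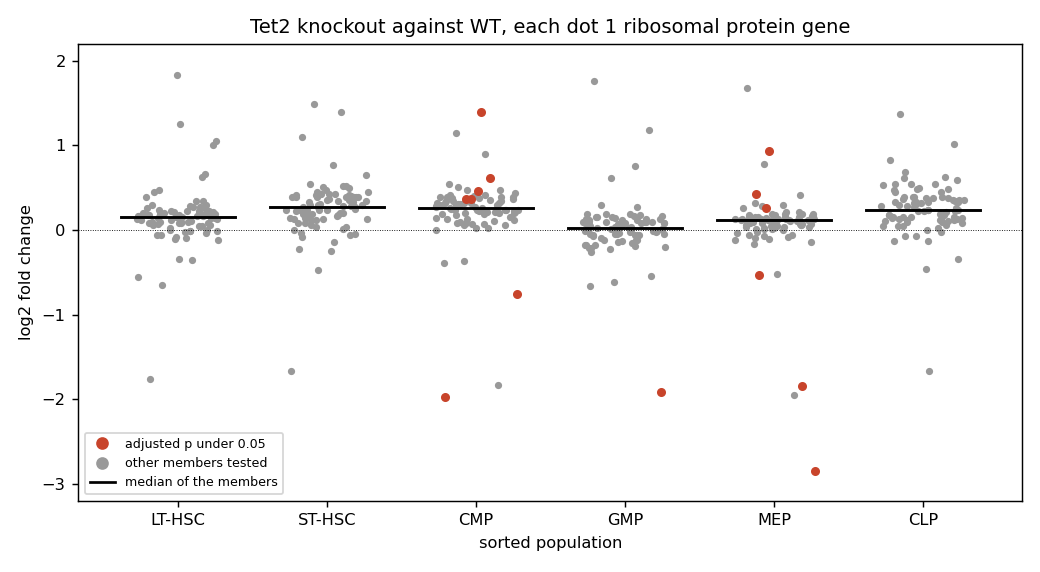
Log2 fold change of each tested ribosomal protein gene in Tet2 knockout against WT libraries, by population, with called members in red and a bar at the members' median. Rps2 is the lowest point in CMP and MEP, and the bulk of the members lies slightly above 0 except in GMP.

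Rps2, a protein of the small subunit near the mRNA entry site, stood apart from the other members. In WT CMP it was at 1488, 1230, 1582 and 1549 CPM, and in knockout CMP at 501, 355, 280 and 366 CPM. In WT MEP it was at 2367, 2120, 2430 and 2172 CPM, and in knockout MEP at 478, 298, 194 and 302 CPM. All knockout libraries of both populations lay below all WT ones. The edgeR adjusted p was 0.000158 in CMP and 0.000143 in MEP. GMP differed from this pattern, with 1376, 983, 1039 and 1399 CPM in WT and 721, 1206, 1401 and 1519 CPM in knockout libraries (log2 fold change -0.03). In both genotypes the stem cells were low: WT LT-HSC had 183, 124 and 184 CPM and knockout LT-HSC 138, 155, 232 and 269 CPM. The ratio of CMP to ST-HSC was high in WT (log2 3.20, edgeR adjusted p = 9.11e-07) and not called in knockout libraries (1.02, adjusted p = 0.0728).

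Rps2 has 31 copies, and 43.0% of its 50-base stretches are shared with another gene. Their summed counts were 1261, 1137, 1089.7 and 1151 CPM in WT CMP and 499, 219, 147 and 188 CPM in knockout CMP, so gene and copies were low in the same libraries. Added to Rps2, they left log2 fold changes of -2.04 ± 0.23 in CMP and -2.86 ± 0.33 in MEP (edgeR adjusted p = 0.000595 and 0.000828). In GMP the copies alone were at 929 to 1031 CPM in WT and 393 to 617 CPM in knockout libraries, where Rps2 itself overlapped.

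That the genotype difference varied between populations was tested directly. In a model of all 46 libraries, Rps2 was the only member of 85 with a called interaction of genotype and population (F = 23.5, edgeR adjusted p = 2.41e-07), where 2.65% of all genes were called, and the same member alone was called with RLE scaling. Rpl13, a protein of the large subunit, fell in CMP from 2206, 2224, 3140 and 2918 CPM to 1748, 1237, 1299 and 1991 CPM. In MEP it went from 2767, 3059, 3805 and 3335 CPM to 1726, 438, 274 and 936 CPM, a log2 fold change of -1.94 that was not called by edgeR (adjusted p = 0.054) but was by DESeq2 (adjusted p = 0.00108). The libraries did not overlap in either population, but knockout MEP libraries spread widely. Rpl13 also varied within WT stem cells, at 1447, 421 and 1429 CPM in LT-HSC. The GC content of the longest mRNA was 55.9% for Rps2 and 57.1% for Rpl13, ranks 15 and 9 of the 86 members. Both fall in the class of 55% to 60% GC, in which the median log2 difference of knockout from WT over 1224 other genes at 10 CPM or more was -0.167 in CMP, 0.024 in MEP and 0.082 in GMP. It was -0.33, -0.15 and 0.044 for the 145 genes over 60% GC, and 0.135, 0.089 and 0.059 for the 2679 genes under 45% GC, in the same order. The part of GC content in the Rps2 difference was not tested.

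Rpl38, a large-subunit protein known for its part in the translation of Hox mRNAs, went the other way. Its levels were 431, 409, 359 and 363 CPM in WT CMP and 1045, 691, 995 and 1393 CPM in knockout CMP (edgeR adjusted p = 0.00225). In MEP they were 655, 734, 587 and 651 CPM in WT and 1355, 762, 1287 and 1649 CPM in knockout libraries (edgeR adjusted p = 0.0308). WT and knockout libraries did not overlap in CMP or in MEP. The MEP call was lost with the replicate block (log2 fold change 0.89, edgeR adjusted p = 0.110) and without WT number 3 (0.99, adjusted p = 0.0621). The CMP call held in both (edgeR adjusted p = 0.0208 and 0.00953). The log2 fold changes in LT-HSC, ST-HSC, GMP and CLP were 1.0003, 1.40, 0.76 and 1.37, none of them called by edgeR. Knockout library number 3 was the lowest knockout library for Rpl38 in each of the 6 populations, and its GC content, 59.1%, ranks 5 among the members.

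**Figure D4:**
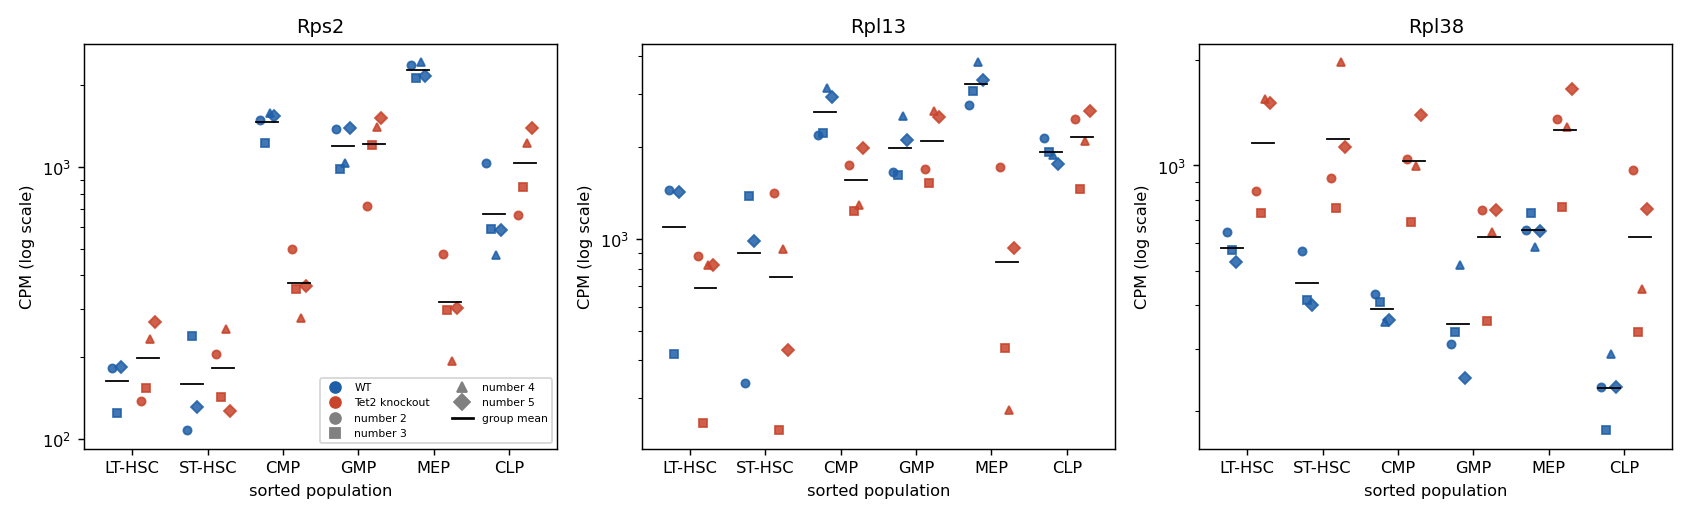
CPM on a log scale of Rps2, Rpl13 and Rpl38 in every library, by population, WT and knockout, with lines at the group means. The knockout CMP and MEP libraries lie below the WT ones for Rps2, and the knockout libraries of CMP and MEP lie above the WT ones for Rpl38.

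Many members share sequence with processed copies elsewhere in the genome, and reads from such stretches can be counted for either. By shared stretches of 50 bases in the GENCODE M21 transcripts, 459 genes were copies of a member, 449 of them pseudogenes. Of the members 74 had at least 1 copy, 12 had none, and a single member had up to 44. The median member shared 20.4% of its 50-base stretches with another gene. Within the list, Rps12l1 shared 100% of its stretches with Rps12 and Rpl6l 61.8% with Rpl6, so the counts of Rps12l1 cannot be told apart from those of Rps12, and those of Rpl6l only in part from those of Rpl6. Rpl34, Rps3a1 and Rpl29 were among the members whose counts moved against those of their copies.

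For these 3 genes, stretches of 60 coding bases are shown with some of their copies, from GENCODE M21 on GRCm38, because within these coding stretches only the few bases that differ separate the rows of the table. Capitals mark the bases that differ within a set. Rpl34, a large-subunit protein, lies at chr3:130726831-130730398 on the minus strand. It has 4 copies, of which Rpl34-ps1 at chr6:71124610-71124963 on the plus strand is shown. The coding sequences of Rpl34 and Rpl34-ps1 differ at 2 of 354 bases, and these are coding bases 102 to 161:
Rpl34: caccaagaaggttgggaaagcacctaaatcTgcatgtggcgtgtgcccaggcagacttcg
Rpl34-ps1: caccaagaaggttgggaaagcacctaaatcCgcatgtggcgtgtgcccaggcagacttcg
Rps3a1, a small-subunit protein, lies at chr3:86137940-86142702 on the minus strand. It has 6 copies, of which 3 are shown: Rps3a2 at chr14:88123017-88123808 (minus strand, 4 of 792 bases differ), Rps3a3 at chr13:108670603-108671397 (plus strand, 9 of 795) and Gm5586 at chr7:16719116-16719910 (minus strand, 12 of 795). Coding bases 612 to 671 hold a difference from each of them:
Rps3a1: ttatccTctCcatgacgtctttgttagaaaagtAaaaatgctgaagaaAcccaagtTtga
Rps3a2: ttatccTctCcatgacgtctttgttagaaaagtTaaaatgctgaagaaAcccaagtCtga
Rps3a3: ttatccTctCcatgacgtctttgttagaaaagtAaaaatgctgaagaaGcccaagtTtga
Gm5586: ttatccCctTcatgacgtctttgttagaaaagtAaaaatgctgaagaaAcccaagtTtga
Rpl29, a large-subunit protein, lies at chr9:106429454-106431568 on the plus strand. Of its 20 copies, those shown are Gm8210 at chr1:43189156-43189638 (plus strand) and Gm13841 at chr5:115801677-115802159 (minus strand), each with 3 of 483 bases different. Coding bases 42 to 101 of the 3 are:
Rpl29: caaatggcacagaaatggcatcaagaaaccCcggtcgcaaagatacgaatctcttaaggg
Gm8210: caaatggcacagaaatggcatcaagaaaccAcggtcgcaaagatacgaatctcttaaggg
Gm13841: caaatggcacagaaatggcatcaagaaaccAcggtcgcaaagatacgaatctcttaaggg

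Rpl34 had a negative log2 fold change in knockout libraries of all 6 populations: -1.76, -1.66, -1.83, -1.92, -1.84 and -1.66 in LT-HSC, ST-HSC, CMP, GMP, MEP and CLP. Its levels were 375, 55.1, 373 and 338 CPM in WT CMP and 83.3, 71.5, 80.5 and 87.2 CPM in knockout CMP. WT library number 3 was at the knockout level in each population, at 74.2 CPM in LT-HSC and 108 CPM in MEP, for example. Without WT number 3 the log2 fold changes were -2.24, -2.14, -2.18, -2.25, -2.15 and -2.02, with edgeR adjusted p of 6.28e-05 in CMP, 1.15e-05 in GMP and 3.28e-05 in MEP. The pseudogene Rpl34-ps1 had the reverse pattern, at 449, 683, 399 and 380 CPM in WT CMP and 813, 749.9, 849 and 887 CPM in knockout CMP, with WT number 3 again on the knockout side. Summed with its copies, Rpl34 had log2 fold changes of 0.34, 0.53, 0.29, 0.05, 0.09 and 0.35, so the direction turned in every population.

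Rps3a1 also moved against its copies. Unlike for Rpl34, the sum of its copies in WT number 3 stayed at the WT level in each population. In MEP it was at 2942, 3231, 2943 and 3178 CPM in WT and 2286, 2030.2, 2130.4 and 2094 CPM in knockout libraries (log2 fold change -0.53 ± 0.07, edgeR adjusted p = 0.00154). The copy Rps3a2 was at 24.8, 36.0, 26.2 and 29.9 CPM in WT MEP and at 871, 732, 849 and 759 CPM in knockout MEP, and Rps3a3 went from 15.3, 23.6, 21.1 and 17.8 CPM to 675, 587, 640.2 and 630.0 CPM. Log2 fold changes of Rps3a3 were 5.16, 5.12, 5.12, 4.75, 5.02 and 4.71 in the 6 populations, all called by edgeR. Those of Rps3a2 were 4.68, 4.83, 4.92, 3.99, 4.77 and 3.92, called in all but CLP (edgeR adjusted p = 0.129). Over all 46 libraries, WT levels stayed at or below 50.1 CPM for Rps3a2 and 31.6 CPM for Rps3a3, and knockout levels at or above 179 and 164 CPM. Counted as 1 feature with Rps3a2, Rps3a3 and Gm5586, Rps3a1 had log2 fold changes of 0.20, 0.28, 0.37, 0.13, 0.22 and 0.23 with no call (lowest edgeR adjusted p 0.0917, in CMP). Its own direction was thus not that of the family.

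Rpl29 varied with the library number within each genotype. In LT-HSC it was at 13.9, 70.8 and 8.86 CPM in WT numbers 2, 3 and 5 and at 4.94, 355, 14.6 and 66.9 CPM in knockout numbers 2 to 5. In MEP the values were 12.4, 119, 16.1 and 15.4 CPM in WT and 12.2, 356, 18.1 and 137.5 CPM in knockout libraries. The same numbers, WT 3 and knockout 3 and 5, were the high ones in all 6 populations. The copy Gm8210 was at 2.87 CPM in knockout CMP number 3 and at 299, 302 and 162 CPM in numbers 2, 4 and 5. Of the spread within groups, 93.7% went with the number for Rpl29 and 94.1% for Rpl34, beside a median of 29.9% for the 81 members at 10 CPM or more and 19.9% for all 8877 such genes. With copies added these fell to 80.8% and 24.7%. The log2 fold change of Rpl29 with its copies lay between -0.11 and 0.15, where without them it was 1.02 to 1.83. Without WT number 3 the latter range was 2.60 to 3.27, with no call by edgeR (lowest adjusted p 0.142, in CMP).

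Rpl30, a large-subunit protein with 10 copies, was high in knockout numbers 4 and 5. It was at 282, 350.3, 999 and 892 CPM in knockout LT-HSC numbers 2 to 5 and at 290.3, 311 and 314 CPM in WT LT-HSC. In CMP it was at 276, 229, 548 and 607 CPM in knockout and 191 to 247 CPM in WT libraries. Its log2 fold changes of 0.62 to 1.10 shrank to between 0.04 and 0.43 with copies added. Its copies summed to 559.8, 479.7, 274 and 325 CPM in knockout CMP numbers 2 to 5, so the numbers high for Rpl30 were the low ones for its copies. EdgeR called Rpl30 in none of the 6 populations (adjusted p = 0.119 in CMP), and DESeq2 called it in CMP (adjusted p = 0.0262).

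**Figure D5:**
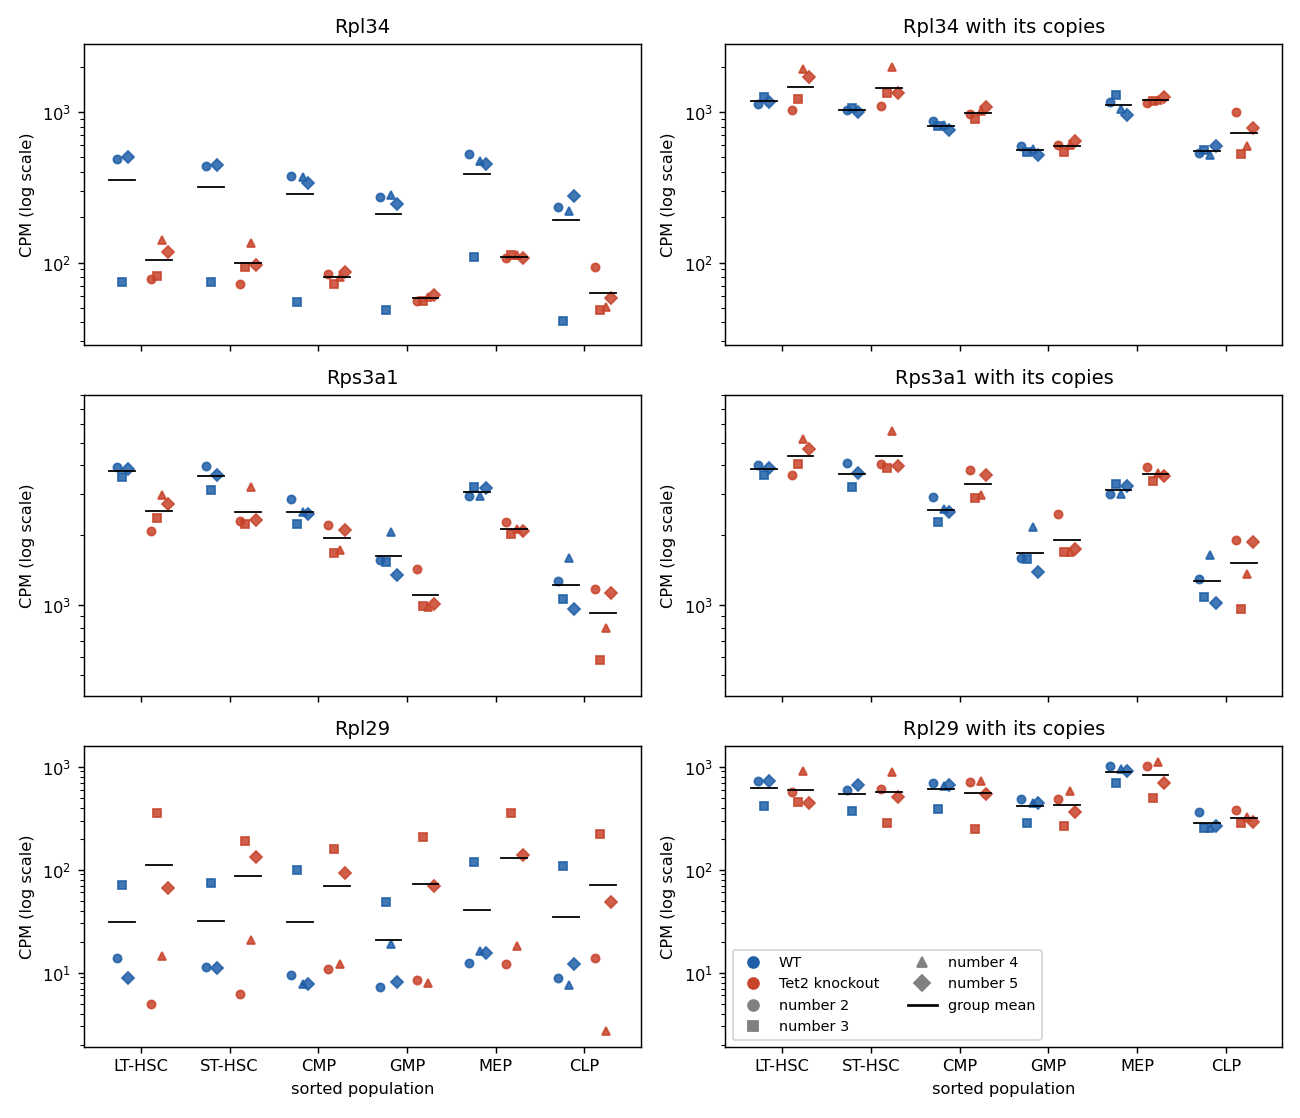
CPM on a log scale of Rpl34, Rps3a1 and Rpl29 (left) and of each summed with its copies (right), in every library, with the library number as the marker shape and lines at group means. The separation of genotypes for Rpl34 and the spread by number for Rpl29 are far smaller once copies are added. For Rps3a1 the direction turns, with log2 fold changes from -0.39 to 0.38 in CMP and from -0.53 to 0.22 in MEP.

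The paralogues within the list differed in their pattern. Rps27l had a WT mean of 603 ± 67.3 CPM in MEP and 310 ± 28.2 CPM in CMP (SD, n = 4), whereas Rps27 was highest in WT LT-HSC, at 2131 ± 179 CPM (SD, n = 3), and at 1427 ± 235 CPM in MEP. Rpl22l1, which can stand in for Rpl22 in the ribosome, was at 866 ± 183 CPM in WT ST-HSC and 229 ± 56.9 CPM in WT CLP, and Rpl22 at 320.4 ± 50.1 and 162 ± 33.0 CPM. Rpl7l1, a paralogue of Rpl7 that acts in subunit assembly, was at 181 ± 1.91 CPM in WT LT-HSC and 201 ± 10.9 CPM in WT MEP.

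Several members whose human genes are known in Diamond-Blackfan anaemia or the 5q- syndrome (Rps19, Rpl5, Rpl11, Rps26, Rps24, Rpl35a, Rps14, Rps10 and Rps7) were looked at by name. Of those listed, only Rpl11 in MEP was called between genotypes by edgeR (adjusted p = 0.043), where 5.66% of all genes were called in MEP and 6.89% in CMP. This call was lost with the replicate block. Rps19, the gene most often affected in Diamond-Blackfan anaemia, had log2 fold changes of 0.09 ± 0.09 in CMP and -0.07 ± 0.12 in MEP. Rps14 had 0.14 ± 0.12 in CMP and 0.03 ± 0.11 in MEP. Rpl5, which acts with Rpl11, had 0.22 ± 0.07 in CMP, with an edgeR adjusted p of 0.133.

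Other genes of the ribosome and of translation were counted in the same fits. Of 6 tested ribosomal proteins with names outside the pattern, none was called between genotypes by edgeR in any population, with shares of all genes as given above. Fau, Rack1, Rps27rt and Rpsa were among those that fell from ST-HSC to CLP in WT, beside 16.9% of all genes. Of 13 translation factors and other genes with a pyrimidine start, Eef1g, Npm1 and Pabpc1 were higher and Eif3f lower in knockout CMP by edgeR, where 1.71% of all genes were higher and 5.18% lower. In knockout GMP Pabpc1 was higher and Eif3f lower, where the shares were 1.07% and 5.49%, and in knockout MEP Eif4b was higher and Eif3f and Tpt1 lower, where they were 0.656% and 5.01%. Eif3f, a subunit of an initiation factor, had log2 fold changes of -2.12, -3.24 and -1.83 in these 3 populations. From CMP to GMP in WT 5 of the 13 fell (Eef1a1, Eef1b2, Eif3e, Naca and Tpt1), beside 2.71% of all genes, and from CMP to MEP 5 rose (Eef1d, Eef1g, Eif3e, Naca and Npm1), beside 2.75%. Ribosome biogenesis genes, which make and assemble the pre-ribosomal RNA, were counted too: of 49 tested in WT, 4 rose (Nolc1, Pes1, Rrp1 and Tcof1) and 0 fell from CMP to GMP, where 2.1% of all genes rose and 2.71% fell. In MEP 11 of the 49 rose, among them Ncl and Nop58, beside 2.75% of all genes, and in CLP 26 fell and 4 rose relative to ST-HSC, beside 16.9% and 11.2%. Between genotypes, 49 of these genes were tested in CMP and in GMP. Ncl and Npm1 were higher and Rrs1 lower in knockout CMP, where 1.71% of all genes were higher and 5.18% lower. Heatr1 and Utp20 were higher and Rrs1 lower in knockout GMP, where the shares were 1.07% and 5.49%. Among 15 regulators, Eif4ebp1, the mTOR-controlled brake on cap-dependent translation, Mdm2 and Rheb were lower in knockout CMP and in knockout MEP, and Rheb also in knockout GMP, where 5.18%, 5.01% and 5.49% of all genes were lower (log2 fold changes of -1.82, -2.59 and -1.05 for Rheb).

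Promoter windows from 250 bases before to 50 after the start (RefSeq, GRCm38.p6) were found for 63 members outside chromosome 18, with 75 windows. The letters CCGGAAG, read on both strands, were present for 25 of 63 members, in 34.7% of their windows and in 8.86% of all 32851 windows. CTCTTTC was present for 18 members, in 21 of 75 windows against 8.16% of all, and AAGATGGC for 6, in 10.7% against 2.75%. A window may hold several of these and matches may overlap. The median GC content was 57.67% in members' windows and 52.67% in all.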

How the data were processed

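The deposited table holds whole-number counts of reads per gene, which the authors did not normalize. They trimmed reads with Trim Galore and mapped them to mm10 with HISAT2 before testing with DESeq2 (the submitters' notes name Trim Galore 0.6.7 and HISAT2 7.5.0, and mm9 beside mm10). The counting program, annotation and strand setting are not given in the sources used here, nor is it given whether libraries of 1 number came from 1 mouse. The study counts its replicates as mice. Deviations of same-numbered libraries of 1 genotype had median correlations of 0.0515 (WT) and 0.064 (knockout), from -0.0727 to 0.328, and only the knockout CMP and MEP pair, of 30 pairs of populations, was over 0.1 for every number (0.1448 to 0.2408). A second table of 9 LT-HSC libraries was not used, and 0 per-sample columns of the first were left out. Groups came from the sample titles and genotype labels.

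The members, lists and tests were chosen with earlier results of these data known. Counts of all genes were filtered with filterByExpr, scaled by TMM and tested with edgeR 4.0.16 (glmQLFit, glmQLFTest, R 4.3.3), with Benjamini-Hochberg adjustment over all genes tested and calls at an adjusted p of 0.05. Genotypes were compared within each population from its own libraries, and populations within each genotype from all its libraries. CPM are relative to TMM-scaled totals over all 46 libraries, and log2 fold changes use a prior count of 2. A copy of a member is a gene that shares at least 20% of its own 50-base stretches with it (GENCODE M21). Named genes are paralogues in the list, members with copies, members called between genotypes, the 3 called members with the largest rise and fall in each population contrast, the 3 highest and lowest per length, the anaemia genes and members under the filter; a few genes that fall under this rule or these lists are not reported here. Rpl29, Rpl30, Rplp2 and Rpl13 in MEP were named after their values were seen. Alternatives were RLE scaling, scaling to the members' sum, no filter, DESeq2 1.42.0, all 46 libraries in 1 fit, a replicate block, leaving out each library, and, added after seeing the data, members summed with copies and CPM without TMM factors. The test was checked on simulated data. Counting error is small at this depth, and reads are not independent molecules since no molecular identifiers were used.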

Additional observations from a re-analysis of the deposited data

Results flagged for a closer look

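In the groups of 4 libraries, 150 sets of values were examined for a library far from the other 3, and 13 such cases were found (8.67%). The sets were the members' share, the subunit ratio and levels of genes chosen with earlier results known, some after their values were seen. They also share libraries, so this rate cannot be set against the 1 in 20 that chance gives for independent sets. The share of counts in the members was 15.8% in knockout ST-HSC number 4, above the other 3 of its group, and the same library was apart for Rps3a1 (3233 CPM) and Rpl23a (1619 CPM). WT library number 3 was apart in several populations: for Rpl34 at 55.1 CPM in CMP and 48.2 CPM in GMP, for Rpl29 at 98.75 CPM in CMP, 119 CPM in MEP and 109 CPM in CLP, and for Rplp1 at 995 CPM in CMP. The remaining cases were Rps3a1 in knockout GMP number 2 (1429 CPM), Rpl13 in knockout LT-HSC number 3 (249.8 CPM), Rps27l in knockout CMP number 5 (554 CPM) and the ratio of small-subunit to large-subunit counts in knockout MEP number 5 (0.768).

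The difference between knockout and WT libraries varied with the population for Rps2, by the interaction term of an edgeR model of all 46 libraries (adjusted p = 2.41e-07).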

How the results depend on the processing

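Groups held 3 or 4 libraries, which limits the tests at any depth. The zero counts for LT-HSC, and for ST-HSC against LT-HSC, held under the alternatives that could be run. Runs that left out a library or number aside, the medians moved beyond 1 SD in 10 of 115 alternatives. Of these, 9 came from scaling to the members' sum, which takes the median towards 0 by construction. DESeq2 called 1 member in ST-HSC, 30 in CMP, 2 in GMP, 10 in MEP and 4 in CLP between genotypes, and 39 in WT CMP, 21 in knockout CMP, 63 in knockout GMP and 20 in knockout MEP between populations. The shares of all genes that DESeq2 called stand beside these counts in the Results. For the other settings, and for runs without a library or number, the share of all genes called is not given, here or in the Results. Changes in those counts therefore cannot be told apart from changes in calls over all genes. All 46 libraries in 1 fit gave 2 in CMP, 0 in GMP, 2 in MEP and 4 in CLP between genotypes, and 3 in WT CMP, 6 in knockout CMP and 64 in knockout GMP. RLE scaling gave 26 in WT CMP and 6 in knockout CMP, and no filter gave 3 in the genotype comparison of CMP. Scaling to the members' sum gave 2 in the genotype comparison of GMP. Between populations it gave 3 in WT CMP, 1 in WT GMP, 0 in WT MEP, 25 in WT CLP, 5 in knockout CMP, 1 in knockout GMP, 0 in knockout MEP and 27 in knockout CLP. Under that scaling the CMP genotype calls were 2 higher and 4 lower. The cause of the other shifts was not tested.

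Leaving out 1 library at a time, the genotype counts ran from 3 to 6 in CMP, 0 to 2 in GMP and 2 to 4 in MEP. Leaving out 1 number, the population counts ran from 1 to 17 (CMP), 14 to 40 (GMP) and 13 to 40 (MEP) in WT, and from 0 to 2, 1 to 15 and 0 to 2 in knockout libraries.

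Between same-numbered WT and knockout libraries of a population, the 22 correlations of deviations ran from -0.0578 to 0.133 (median 0.0422), with 2 over 0.1, and 20 of 44 libraries correlated best with their own number. The replicate block gave 4 calls in CMP (Rpl38, Rplp1, Rps2 and Rps27l), 0 in GMP and 2 in MEP (Rps2 and Rps3a1). Within a genotype, 140 of 222 checks between populations found the own number best. With the block, 23, 42, 49 and 75 members were called in WT CMP, GMP, MEP and CLP, and 1, 43, 9 and 78 in knockout libraries, each within 1.5 times the count without it, and ST-HSC against LT-HSC stayed at 0 in both.

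Members summed with their copies, added after seeing the data, gave 0 calls in GMP. The sum turned Rpl34 to 0.34, 0.53, 0.29, 0.0515, 0.0891 and 0.35 and Rps3a1 to 0.20, 0.30, 0.38, 0.12, 0.22 and 0.23 in LT-HSC, ST-HSC, CMP, GMP, MEP and CLP, and Rps3a1 with Rps3a2, Rps3a3 and Gm5586 as 1 feature was at 0.20, 0.28, 0.37, 0.13, 0.22 and 0.23. Small uncalled values turned too: Rps2 to -0.12 in LT-HSC and -0.0475 in ST-HSC with copies, to -0.029 in ST-HSC scaled to the members' sum and to 0.0097 in GMP in the fit of all 46 libraries. Rpl13 turned to -0.0022 in GMP with copies and to -0.0926 in CLP scaled to the members' sum. Leaving out 1 library, Rps2 in GMP ran from -0.14 to 0.15, Rpl13 in GMP from -0.11 to 0.21 and Rpl13 in ST-HSC from -0.72 to 0.21.

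Without mitochondrial genes in the total, the members' share was 13.8% in WT LT-HSC, 12.9% in WT ST-HSC, 10.5% in WT CMP, 13.2% in WT MEP and 13.8% in knockout MEP. With Rps3a2, Rps3a3 and the -ps symbols added it was 13.3% in WT LT-HSC, 10.5% in WT CMP, 12.9% in WT MEP, 7.38% in knockout GMP and 13.5% in knockout MEP.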
